A study of Homo sapiens with 16 samples.

Results

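The heat shock protein 70 (HSP70) family and its cochaperones were followed here in Caco-2 cells, a human colon carcinoma line used as a model of the enterocyte. The group was fixed by gene name as HSPA1A, HSPA1B, HSPA1L, HSPA2, HSPA6, HSPA8, HSPH1, DNAJB1, HSPB1 and BAG3, and every probe carrying one of these names was taken. It was selected on measured values of these same arrays, so the changes of its members are given as a description and no test is read from them. Of the 10 genes, 9 had a probe, with 17 probes in all among 40982 probes and 27710 named genes. No probe carried the name HSPA1B, and 2 of the 3 HSPA1A probes also listed the HSPA1B transcript, so they cannot tell the pair apart.

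Undifferentiated Caco-2 cells in medium with 1% fetal calf serum were exposed for 6 h to 1 of 4 conditions, with 4 arrays each. PT-G was gliadin, the wheat protein fraction harmful in celiac disease, digested with pepsin and trypsin. PT was the same pepsin-trypsin mixture taken through the procedure with no substrate. In PT-G and PT alike, the enzymes were inactivated by heat. The third agent, p31-43, was a synthetic gliadin peptide at 150 µg/ml, and MED-CTL cells received medium alone. All cells, controls included, were detached with trypsin-EDTA before RNA was extracted, so every array carries that handling. The 4 arrays of a condition came from 4 independent experiments with cells 1 or 2 passages apart, and array names place them in 4 runs with 1 array of each condition. MED-CTL replicate 2 belonged to run 1 and MED-CTL replicate 1 to run 2, while all other replicate numbers equal the run. An undifferentiated cancer line in a flask is a limited model of the enterocyte, and the arrays read the RNA of the whole flask, so more cells with a transcript and more transcript per cell cannot be told apart.

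HSP70 proteins bind stretches of unfolded protein and release them in a cycle driven by ATP. HSP40 proteins such as DNAJB1 bring clients and speed up ATP hydrolysis, while exchange factors such as BAG3 and HSPH1 remove the spent nucleotide and so allow release. Some family members are made at all times, as HSPA8 is, and others are raised when cells are stressed, as HSPA1A and HSPA6 are. This acts through heat shock factors that bind repeated GAA units, the heat shock elements, in promoters.

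The promoters of the members were read first, because heat shock factors act through repeated GAA units and the members differ in how many such units they hold. The windows ran from 250 bases before to 50 bases after a gene start (RefSeq, build GRCh38.p14), and 12 windows covered all 10 genes, with 3 of them for DNAJB1. Pairs of units were searched as GAANNTTC or TTCNNGAA, which read the same on both strands and may overlap each other. At least 1 pair stood in 8 of the 12 windows and in 7 of the 10 genes, and in 13.5% of 35116 promoters. Triplets, GAANNTTCNNGAA on either strand, stood in 0.49% of all promoters and among the members in HSPA6 and HSPA8. The stretches that hold the pairs are shown from 20 bases before the first to 20 bases after the last, 5′ to 3′ in the direction of transcription, with paired units in capitals and overlapping pairs run together.
HSPA6, chr1:161524340-161524498, + strand: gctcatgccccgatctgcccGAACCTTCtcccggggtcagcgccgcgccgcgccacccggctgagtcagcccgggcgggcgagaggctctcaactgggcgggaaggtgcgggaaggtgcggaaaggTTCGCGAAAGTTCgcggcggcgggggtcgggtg
HSPA8, chr11:123062159-123062386, − strand: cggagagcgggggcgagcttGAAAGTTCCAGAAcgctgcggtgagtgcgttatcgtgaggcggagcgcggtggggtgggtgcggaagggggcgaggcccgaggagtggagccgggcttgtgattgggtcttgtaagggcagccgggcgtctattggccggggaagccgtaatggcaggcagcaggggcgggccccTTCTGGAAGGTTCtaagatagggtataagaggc
HSPA1A, chr6:31815417-31815464, + strand: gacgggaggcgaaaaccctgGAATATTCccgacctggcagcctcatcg
HSPA1B, chr6:31827613-31827660, + strand: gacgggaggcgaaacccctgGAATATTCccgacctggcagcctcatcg
DNAJB1, chr19:14518417-14518494, − strand: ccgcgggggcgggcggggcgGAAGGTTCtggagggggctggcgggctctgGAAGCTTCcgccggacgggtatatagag
HSPB1, chr7:76302471-76302518, + strand: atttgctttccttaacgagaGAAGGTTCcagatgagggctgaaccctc

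In HSPA6 the triplet began at position −74 from the start and a separate pair at −180. In HSPA8, whose level is known to be high without stress, triplets began at −55 and at −230. HSPA1A and HSPA1B carried 1 pair each, and the stretches shown were identical at 47 of 48 bases. The HSPA1L window, read from the opposite strand of the same locus, held the HSPA1A stretch itself, with 48 of 48 bases in common. DNAJB1 held pairs at −77 and −47 in the window shown, and 1 more at position 1 of another start. HSPA2, HSPH1 and BAG3 held no pair in these windows, which says only that these letters are not there.

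All 17 probes were well above background on all 16 arrays, and none was saturated or marked as an outlier. Median intensities of the arrays lay between 153 and 410, and between 27660 and 33947 spots per array were well above background. All 9 epithelial markers examined (among them VIL1, CDH1, KRT8, KRT18 and EPCAM) were detected on all 16 arrays. Of 8 markers of other cell types, PTPRC of leukocytes and COL1A2 of fibroblasts were detected on no array, DES of muscle on 14, and CD3E, CD68, PECAM1, COL1A1 and COL3A1 on all 16. The log2 of their summed intensity lay between 10.58 and 10.87 on PT-G arrays, 10.63 and 10.83 on PT arrays, 10.63 and 10.84 on p31-43 arrays, and 10.64 and 10.97 on MED-CTL arrays. Values below are log2 intensities after quantile normalization, conditions are compared within each gene, and arrays are listed from run 1 to run 4.

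HSPA6 encodes an HSP70 that is nearly absent from unstressed cells and appears under strong stress. Its log2 intensity was 7.39, 6.85, 6.69 and 6.82 on the MED-CTL arrays and 7.02, 6.86, 6.53 and 6.97 on the p31-43 arrays. It was 8.90, 8.51, 8.10 and 8.38 on the PT arrays and 8.72, 8.55, 7.95 and 8.03 on the PT-G arrays. The 8 arrays of both digests thus lay above all 8 arrays without digest, a pattern whose share over all probes was not counted. In order, the means were 8.47 ± 0.33 for PT, 8.31 ± 0.38 for PT-G, 6.94 ± 0.31 for MED-CTL and 6.84 ± 0.22 for p31-43 (SD, n = 4 each). PT and PT-G overlapped, as did MED-CTL and p31-43, and the step between PT-G and MED-CTL was the only one between neighbours without overlap.

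Against MED-CTL, HSPA6 was 1.37 higher on the log2 scale under PT-G (SE 0.21, 2.59-fold) and 1.53 higher under PT (SE 0.21, 2.89-fold). Both comparisons use the same 4 MED-CTL arrays. Under p31-43 the difference was −0.09 (SE 0.21). Between PT-G and PT it was −0.16, with a 95% interval from −0.62 to 0.30. Background subtraction widened the HSPA6 differences to 1.84 for PT-G and 2.06 for PT, so their size depends on how local background is treated. Their direction was the same in all 17 alternatives tried. Some of these, such as a block for the run, cannot move a difference in this balanced design.

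**Figure D1:**
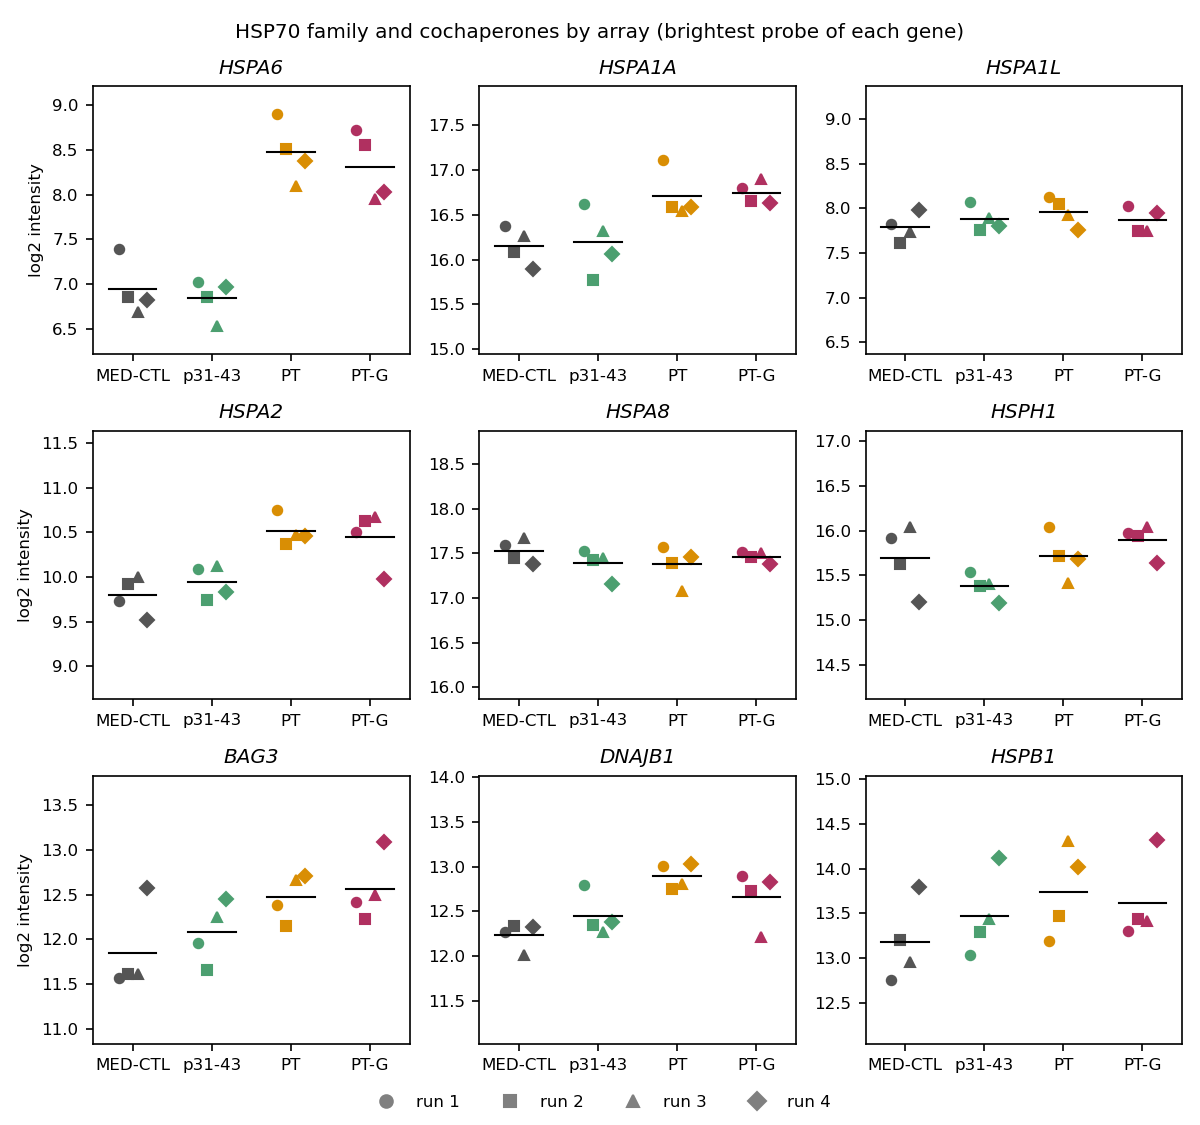
Log2 intensity of the brightest probe of each of the 9 measured genes on the 16 arrays, by condition (x axis), with 1 point per array, point shape for the run and a line at the mean of 4 arrays. All panels span the same number of log2 units, and HSPA6 is the only gene shown whose 8 digest arrays all sit above its 8 other arrays. How many of all probes do so was not counted.

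HSPA1A and HSPA1B encode the major stress-inducible HSP70. The most 3′ HSPA1A probe, which lists HSPA1A alone, read 16.37, 16.08, 16.26 and 15.89 in MED-CTL cells and 16.62, 15.77, 16.32 and 16.06 under p31-43. It read 17.12, 16.59, 16.54 and 16.59 under PT and 16.80, 16.65, 16.90 and 16.64 under PT-G. Both digests lay above every MED-CTL array, and the p31-43 array of run 1 reached into the PT range. This probe was bright without any treatment too, and between 147 and 786 probes were brighter on any of the 16 arrays. The log2 difference from MED-CTL was 0.60 for PT-G (SE 0.17), 0.56 for PT (SE 0.17) and 0.04 for p31-43 (SE 0.17). The order of means was PT-G 16.75 ± 0.12, PT 16.71 ± 0.27, p31-43 16.19 ± 0.37 and MED-CTL 16.15 ± 0.21 (SD, n = 4 each), and all neighbours in this order overlapped, PT and p31-43 through the 1 p31-43 array of run 1. The 2 HSPA1A probes further upstream, 546 and 1097 bases away, differed by 0.36 (SE 0.46) and 0.28 (SE 0.54) under PT-G and by 0.44 (SE 0.46) and 0.39 (SE 0.54) under PT, and their groups overlapped.

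HSPA1L, a testis-enriched relative from the same locus, lay between 7.61 and 8.13 on all 16 arrays. Its difference from MED-CTL was 0.08 for PT-G, 0.17 for PT and 0.09 for p31-43 (SE 0.11 each), and all groups overlapped. HSPA2, an HSP70 best known from sperm development, read 9.73, 9.92, 10.00 and 9.52 in MED-CTL cells. Under PT it read 10.75, 10.37, 10.47 and 10.46, above every MED-CTL array, and under PT-G 10.51, 10.63, 10.67 and 9.98. The PT-G array of run 4 fell inside the MED-CTL range, although it was above the MED-CTL array of its own run. The HSPA2 difference was 0.65 for PT-G and 0.72 for PT (SE 0.16 each), and 0.15 for p31-43 (SE 0.16), whose arrays lay between 9.75 and 10.12. Mean HSPA2 levels were ordered as PT 10.51 ± 0.16, PT-G 10.45 ± 0.32, p31-43 9.95 ± 0.19 and MED-CTL 9.79 ± 0.21 (SD, n = 4 each), and all neighbours overlapped, PT-G and p31-43 through the PT-G array of run 4.

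HSPA8 encodes HSC70, the constitutive HSP70 of the cytosol. Its brightest probe read 17.60, 17.45, 17.67 and 17.38 in MED-CTL cells, 17.57, 17.40, 17.07 and 17.46 under PT, and 17.51, 17.46, 17.50 and 17.38 under PT-G. Under p31-43 it read 17.52, 17.43, 17.44 and 17.16. All groups overlapped, and the widest departure was the PT array of run 3. The log2 difference of this probe from MED-CTL was −0.06 for PT-G, with a 95% interval from −0.29 to 0.17, and −0.15 for PT, from −0.38 to 0.08. The brightest probe of any array lay between 18.25 and 18.54, so HSPA8 was read close to the top of the range but below it. Over all 4 HSPA8 probes the differences from MED-CTL lay between −0.22 and −0.04 for PT-G, −0.29 and −0.13 for PT, and −0.21 and −0.13 for p31-43. The upper ends of the PT-G intervals were 0.17, 0.19 and 0.28 for the 3 probes at its 3′ end and 0.40 for the upstream probe. The interval of HSPA6 began at 0.92. All these intervals use the same 4 MED-CTL arrays, and the members were chosen with their values known. The gap is therefore a description, and no test is read from it. HSPA6 and HSPA8, the 2 members with triplets of heat shock units in the windows shown above, held the largest and the lowest log2 differences of the 17 probes under both digests, a contrast picked out after the values were seen.

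Among the cochaperones, DNAJB1, the HSP40 partner of the inducible HSP70s, read 12.27, 12.34, 12.01 and 12.32 in MED-CTL cells and 13.00, 12.75, 12.81 and 13.03 under PT. Under PT-G it read 12.89, 12.73, 12.21 and 12.83, and the array of run 3 lay inside the MED-CTL range. The difference was 0.66 for PT, 0.43 for PT-G and 0.21 for p31-43 (SE 0.15 each), with p31-43 arrays at 12.80, 12.34, 12.27 and 12.38. The order of means was PT 12.90 ± 0.14, PT-G 12.66 ± 0.31, p31-43 12.45 ± 0.24 and MED-CTL 12.24 ± 0.15 (SD, n = 4 each), and all neighbours overlapped. DNAJB1 was lower under PT-G than under PT in all 4 runs, with log2 differences between −0.60 and −0.02, a mean of −0.23 and a 95% interval from −0.56 to 0.09.

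BAG3, an exchange factor that also leads HSP70 clients to autophagy, read 11.57, 11.62, 11.61 and 12.58 with its more 3′ probe in MED-CTL cells. It read 12.39, 12.15, 12.66 and 12.71 under PT, 12.42, 12.23, 12.49 and 13.09 under PT-G, and 11.96, 11.65, 12.25 and 12.45 under p31-43. The MED-CTL array of run 4 stood far above the other 3 and inside the digest range. The difference of this probe was 0.71 for PT-G and 0.63 for PT (SE 0.25 each), and 0.23 for p31-43 (SE 0.25). The digest differences became 0.96 and 0.88 without MED-CTL replicate 4. The upstream BAG3 probe differed by 0.37 under PT-G and 0.39 under PT (SE 0.29 each). HSPH1, the large HSP110 chaperone that acts as an exchange factor, read 15.92, 15.63, 16.04 and 15.20 in MED-CTL cells. Its difference from MED-CTL was 0.02 for PT, 0.20 for PT-G and −0.32 for p31-43 (SE 0.17 each). Under p31-43 it was below MED-CTL in all 4 runs, by differences from −0.63 to −0.008, the last in run 4. Its arrays lay between 15.19 and 15.54 under p31-43, 15.42 and 16.04 under PT, and 15.64 and 16.04 under PT-G, so that p31-43 lay wholly below PT-G and all other pairs of conditions overlapped. PT-G against p31-43 was not among the comparisons fitted, and its share over all probes was not counted. The gap was picked out after the values were seen, so nothing is read from it.

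HSPB1, the small heat shock protein HSP27, holds unfolded proteins until HSP70 takes them over. Its brightest probe varied widely between runs, with 12.76, 13.20, 12.95 and 13.80 in MED-CTL cells and 13.30, 13.44, 13.41 and 14.33 under PT-G. Under PT it read 13.19, 13.47, 14.31 and 14.01, and under p31-43 13.04, 13.30, 13.44 and 14.12. The groups overlapped, yet within each run all 3 treated arrays lay above the MED-CTL array. Over its 3 probes the difference from MED-CTL lay between 0.43 and 0.44 for PT-G, 0.57 and 0.63 for PT, and 0.30 and 0.31 for p31-43, with SEs between 0.31 and 0.33.

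**Figure D2:**
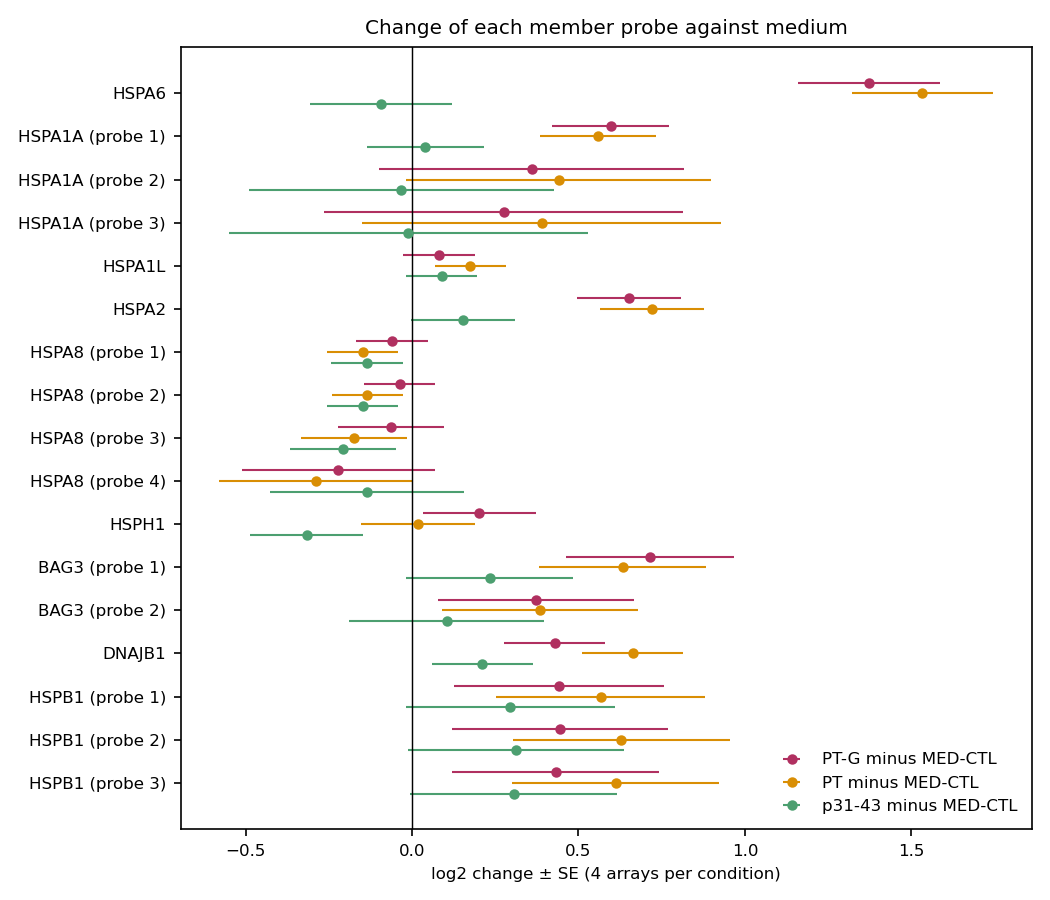
Log2 change of each of the 17 member probes against MED-CTL (x axis) with the SE of the limma fit as bars, for PT-G, PT and p31-43, 4 arrays per condition and probes of a gene numbered from the brightest. HSPA6 stands at 1.37 and 1.53 for the digests and −0.09 for p31-43, and the 4 HSPA8 probes lie below 0 in all 3 comparisons.

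Across the fit of all probes, 3 of the 17 member probes had a nominal p under 0.01 between PT-G and MED-CTL in limma, those of HSPA6 and HSPA2 and the 3′ probe of HSPA1A, all higher, where 3.44% of all probes did. At a Benjamini-Hochberg adjusted p under 0.05 in limma, 1 member probe, HSPA6, passed against 0.944% of all probes. Groups that did not overlap were found for 2 member probes, HSPA6 and HSPA1A, against 3.87% of all probes. Between PT and MED-CTL, the member counts were 4 at nominal p under 0.01 (DNAJB1 besides the same 3 probes), 1 after adjustment and 4 without overlap, against 3.64%, 0.82% and 5.08% of all probes. The members were chosen with these contrasts known, so nothing is read from these counts.

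With p31-43, 0 of 17 member probes passed at nominal p under 0.01 (0.388% of all probes), 0 after adjustment (0% of all probes) and 0 without overlap (1.39%), and 0 reached an unadjusted p under 0.05 in limma (2.15% of all probes). Between PT-G and PT all 3 counts of members were 0, where 0.0903%, 0% and 0.632% of all probes passed, and again 0 had an unadjusted p under 0.05 (0.781% of all probes). The median change over the 17 member probes was 0.37 for PT-G, 0.44 for PT and 0.04 for p31-43, with 13, 13 and 9 of the probes above 0. Over all probes tested the medians were −0.006, −0.010 and −0.001.

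Each run held 1 array of every condition, so the members were also compared within runs. PT replicate 3 and p31-43 replicate 4 lay on a slide of their own, slide 5, apart from the other arrays of runs 3 and 4. HSPA6 under PT-G was above its MED-CTL partner by 1.20 to 1.70 on the log2 scale in 4 of 4 runs, and under PT by 1.41 to 1.66 in 4 of 4. The 3′ HSPA1A probe was above by 0.43 to 0.74 and 0.28 to 0.74, HSPA2 by 0.45 to 0.78 and 0.45 to 1.02, and DNAJB1 by 0.20 to 0.62 and 0.41 to 0.80, each in 4 of 4 runs for PT-G and PT, respectively. BAG3, with its 3′ probe, was above by 0.52 to 0.88 and 0.13 to 1.05. Both digests were set against the same MED-CTL arrays, and the members were chosen with these contrasts known. Shares of all probes with 1 sign in 4 of 4 runs were not counted, here or for DNAJB1, HSPH1 and HSPB1 above. Nothing is therefore read from these counts. HSPA8, with its brightest probe, lay between −0.16 and 0.01 for PT-G and between −0.59 and 0.08 for PT. HSPA6 under p31-43 was on either side of 0, from −0.37 to 0.14. The widest within-run difference of the brightest HSPB1 probe, 1.35 for PT in run 3, came from the PT array on slide 5. Blocking on slide gave PT differences of the 3 HSPB1 probes of 0.35, 0.45 and 0.41 in place of 0.57, 0.63 and 0.61.

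With the run as a block in the limma model, the member probes at nominal p under 0.01 numbered 6 for PT-G, where 9.16% of all probes passed, and 8 for PT, where 10.3% did. BAG3 (3′ probe), DNAJB1 and 1 HSPB1 probe joined for PT-G, and BAG3 and all 3 HSPB1 probes for PT. For p31-43 and for PT-G against PT the blocked counts were 0 of 17, with 1.38% and 0.317% of all probes. At an unadjusted p under 0.05 with the run block, HSPH1 (lower) and 1 HSPB1 probe (higher) passed for p31-43, where 6.03% of all probes did, and DNAJB1 (lower) for PT-G against PT, where 3.49% did. Replicate numbers also paired PT-G with MED-CTL arrays, and with them as a block 5 member probes passed, against 7.59% of all probes. A test of whether the digest effect differed between runs 1 and 2 and runs 3 and 4 was passed by 0 member probes at an adjusted p under 0.05 in limma (0.1% of all probes), and by 0 at an unadjusted p under 0.05 (2.53% of all probes).

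**Figure D3:**
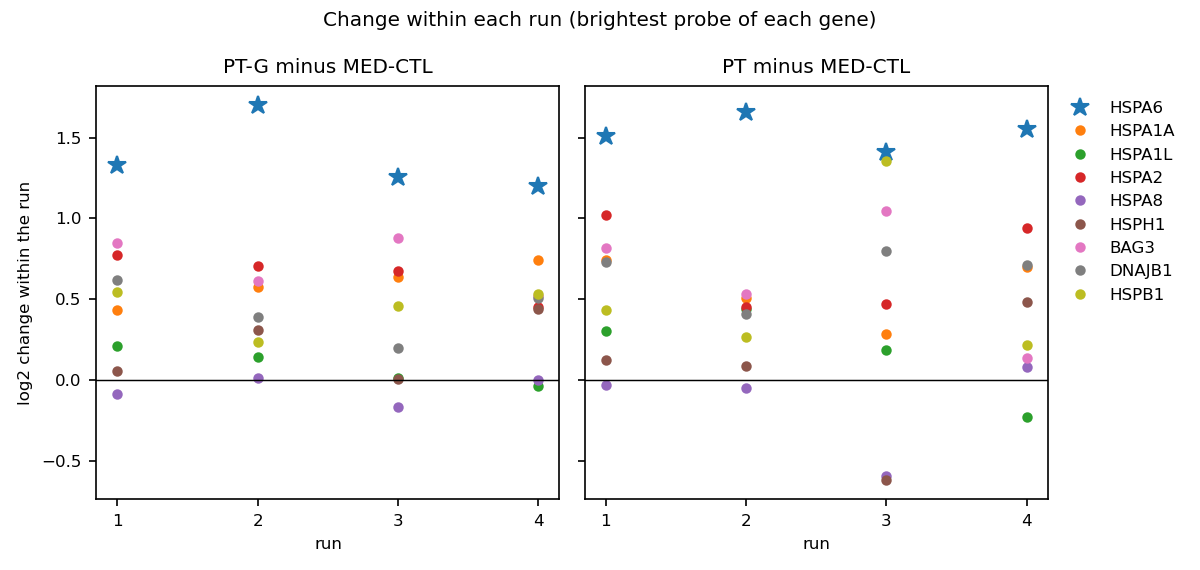
Log2 change within each run (x axis, runs 1 to 4) for the brightest probe of each of the 9 genes, PT-G minus MED-CTL on the left and PT minus MED-CTL on the right, each point being the difference of 2 arrays. HSPA6 (star) lies above every other gene in all 4 runs of both panels, in run 3 under PT by a narrow step over HSPB1. The genes were chosen with these values known.

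The change of HSPA6 was larger than that of each of the 16 other member probes in all 4 runs, for PT-G by at least 0.36 and for PT by at least 0.06 on the log2 scale. For p31-43 this held for 1 of 16 probes. The members were chosen with these changes known, so the ranking is a description and no test is read from it. Member probes also differ widely in brightness, and what this does to the size of a change was not tested. Over the 16 arrays, Pearson correlations of the members with HSPA6 were 0.80 for the 3′ HSPA1A probe, 0.80 for HSPA2, 0.78 for DNAJB1, 0.54 for HSPH1 and 0.39 for HSPA1L. For BAG3 they were 0.48 with the 3′ and 0.58 with the upstream probe, and for the upstream HSPA1A probes 0.53 and 0.42. They lay between 0.19 and 0.23 for HSPB1 and between −0.16 and 0.21 for HSPA8. These values describe arrays that fall into a set with and a set without digest, and share the runs.

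The 5 genes outside the family whose probes were most like HSPA6, among 28486 probes well above background on at least 8 arrays, were TMEM151A (r = 0.960), PLEKHO1 (0.960), C1orf116 (0.960), CTIF (0.958, listed as KIAA0427) and DCP1A (0.957), each over 16 arrays. TMEM151A, listed on the array as TMEM151, differed from MED-CTL by 1.35 for PT-G and 1.40 for PT, while DCP1A, a decapping factor for mRNA, differed by 0.36 and 0.39. All 5 lay within 0.09 of MED-CTL under p31-43. The members reached at most 0.80, but the 5 genes are the top of a search over all those probes. The gap therefore says nothing about the family.

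Genes with probes at several places in the transcript did not read the same over the runs. The difference between the probe 1097 bases upstream and the 3′ probe of HSPA1A, centred on the mean of its 16 arrays, averaged 0.48, 0.40, −0.10 and −0.78 in runs 1 to 4. For BAG3, with probes 584 bases apart, it averaged 0.58, 0.56, −0.22 and −0.91, and for HSPA8, 2163 bases apart, −0.09, 0.11, 0.38 and −0.39. All these distances run along the chromosome and include any intron between the probes, so they are not distances within the transcript. The upstream HSPA8 probe lists 1 of the 2 HSPA8 transcripts that the 3′ probe lists, so transcript variant and position cannot be told apart there. In both HSPA1A and BAG3 the lowest of the 16 arrays was PT-G replicate 4, at −1.59 and −1.38, and in HSPA8 it was again that array, at −0.81. The HSPA1A values of the 4 arrays of run 4 were −0.09 in MED-CTL, −0.51 in p31-43, −0.93 in PT and −1.59 in PT-G cells. The part that this difference between upstream and 3′ probes has in the changes of the upstream probes was not tested. Without PT-G replicate 4, 3 member probes still had a nominal p under 0.01 for PT-G, and the upstream HSPA1A probe differed from MED-CTL by 0.78 in place of 0.28.

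**Figure D4:**
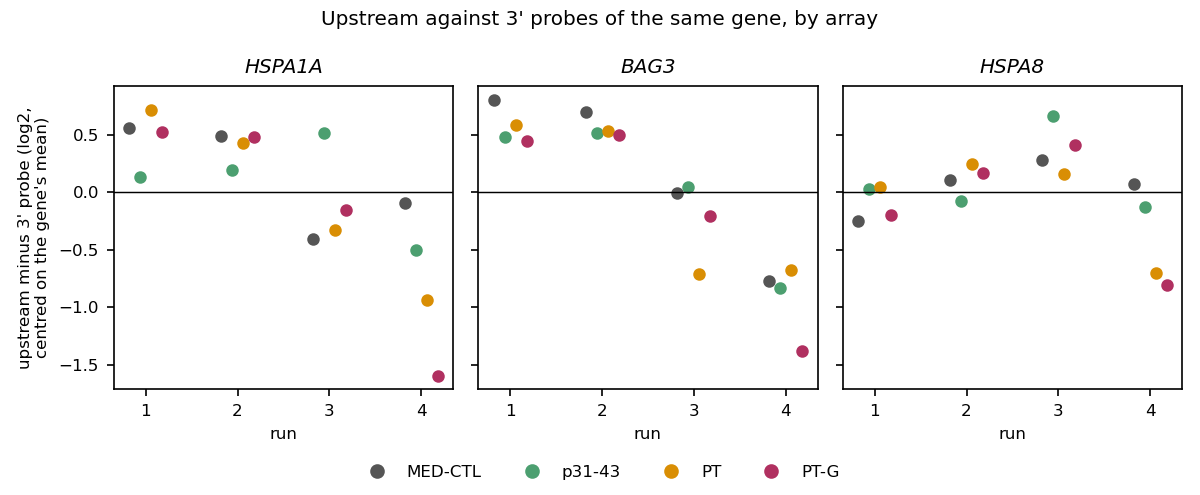
Log2 difference between an upstream and the 3′ probe of HSPA1A, BAG3 and HSPA8 on each of the 16 arrays, centred on the gene's mean (y axis), by run (x axis) and condition (colour). In HSPA1A and BAG3 the arrays of runs 1 and 2 lie above 0 and all 4 of run 4 below, with PT-G replicate 4 the lowest.

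Beyond the members, 71 of 74 other chaperone genes were measured, by the brightest probe of each (HSPA7, DNAJB13 and HSPB11 had none). Under PT-G 3 of the 71 rose at nominal p under 0.01 and none fell, a share like the 3.44% of all probes, and none passed the adjustment. They were HSPA4L, an HSP110 relative of HSPH1, and GRPEL1 and GRPEL2, the exchange factors of the mitochondrial HSP70. HSPA4L rose by 0.56 (SE 0.18, limma adjusted p = 0.227) and its groups did not overlap. GRPEL1 rose by 0.39 (SE 0.11, limma adjusted p = 0.174) and GRPEL2 by 0.38 (SE 0.10, limma adjusted p = 0.139). Under PT 1 of 71 rose, GRPEL2 by 0.45 (SE 0.10, limma adjusted p = 0.0672), and none fell, while HSPA4L differed by 0.34 (SE 0.18) and GRPEL1 by 0.27 (SE 0.11). All 3 calls for PT-G were lost with the background-subtracted signal, and 1 was left without MED-CTL replicate 1 or replicate 2, while 5 were made without MED-CTL replicate 3. For PT, leaving out MED-CTL replicate 3 gave 2 calls and leaving out replicate 4 gave 3. Shares of all probes under these settings were not counted.

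By role, 1 of 9 other HSP70 genes, 0 of 15 HSP40 genes, 2 of 11 exchange and HSP70-binding factors, 0 of 12 HSP90 genes and cochaperones, 0 of 10 chaperonin genes with SERPINH1, 0 of 8 small heat shock proteins and 0 of 6 heat shock factors and their binding proteins rose under PT-G. The median changes of these 7 lists lay between −0.05 and 0.10. HSF1, the factor that drives the classical heat shock response, differed from MED-CTL by 0.21 under PT-G (SE 0.09, limma adjusted p = 0.499), where its groups did not overlap, and by 0.12 under PT (SE 0.09) and p31-43 (SE 0.09). With the replicate number as a block its nominal p for PT-G was 0.00807 in limma. The other 5 genes of its list lay between −0.01 and 0.16 under PT-G and between −0.14 and 0.04 under PT. Under p31-43 and between PT-G and PT, 0 of the 71 genes passed at nominal p under 0.01 in limma, and 3 and 0 had an unadjusted p under 0.05. With the replicate number as a block, 5 genes passed for PT-G and 2 for p31-43, where 7.59% and 1.05% of all probes did. The median over all 71 was 0.01 for PT-G, −0.03 for PT and −0.01 for p31-43, close to that of all probes.

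Of these genes, 34 had further probes, 51 in all. Among them 1 fell at nominal p under 0.01 for PT-G (3.44% of all probes), a second probe of DNAJB12, by 0.34 on the log2 scale (limma adjusted p = 0.218). For p31-43 1 rose (0.388% of all probes), a probe of HSPD1, by 0.73 (limma adjusted p = 0.9999). This HSPD1 probe also differed by 0.63 under PT-G and 0.51 under PT, against a MED-CTL group with an SD of 0.55. The brightest HSPD1 probe differed by −0.02 under PT-G. Both probes with a call were named after their values were seen.

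**Figure D5:**
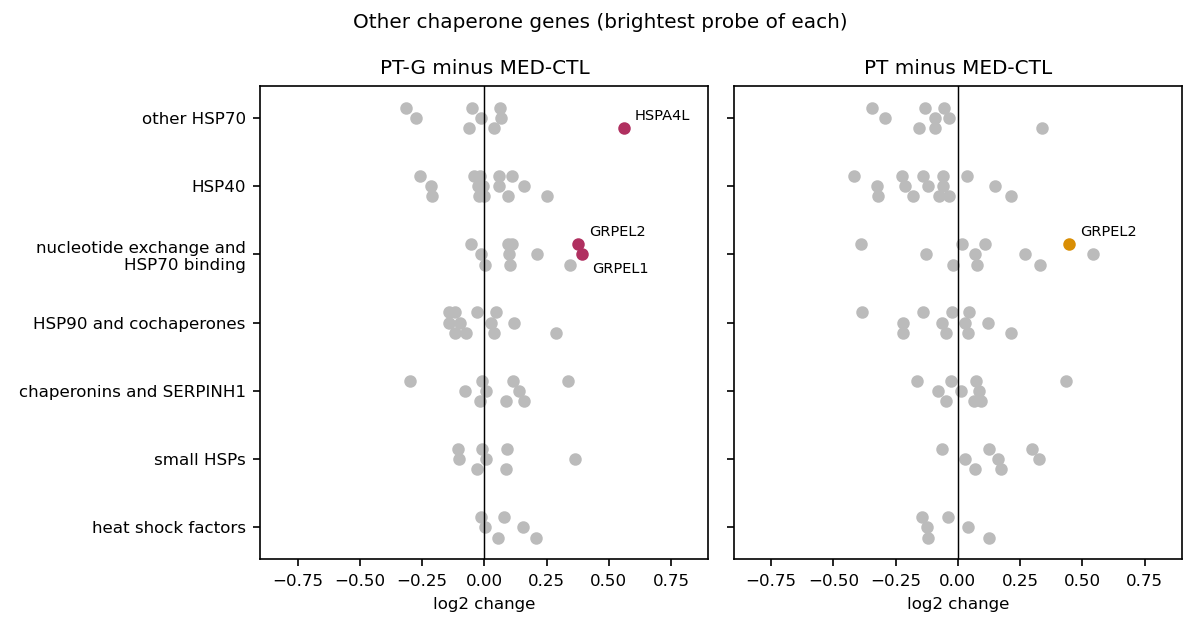
Log2 change of the 71 other chaperone genes against MED-CTL (x axis) by list (y axis), PT-G on the left and PT on the right, with 1 point per gene, grey where the nominal p was 0.01 or more and coloured and named where it was lower. The named points are HSPA4L, GRPEL1 and GRPEL2 for PT-G and GRPEL2 for PT.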

How the data were processed

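Single-colour whole-genome arrays of 16 Caco-2 RNA samples were used, 4 in each of the conditions MED-CTL, PT, PT-G and p31-43. The authors' image analysis (Feature Extraction 9.5.3.1) deposited each spot's intensity on a linear scale, and the deposited log2 values equal the quantile-normalized median intensity over all spots to within 5e-09. Per the file headers, p-values of spots and marks for background, saturation and outliers were also deposited. Of 45015 spots, 1639 controls were left out. Log2 median intensities were quantile normalized without background correction, spots marked as outliers dropped, spots of a probe averaged, and probes kept with at least 3 arrays in each group. All 40982 probes were fitted with limma 3.58.1 (R 4.3.3) in 1 model of 4 conditions, with 2-sided moderated tests, nominal p under 0.01 and Benjamini-Hochberg adjusted p under 0.05.

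The members, gene lists and the rule for named genes were chosen with earlier results of these data known. The rule named all member probes, other chaperone genes called for PT-G or PT by their brightest probe, the heat shock factors (HSF1 with its values, the rest by range) and the 5 genes most like HSPA6. Runs came from the arrays' names. Replicate numbers paired the samples for PT-G with MED-CTL (correlations of deviations 0.395 to 0.858 in 4 pairs) and p31-43 with MED-CTL (0.263 to 0.708), but not for PT with MED-CTL (−0.018 to 0.41). Pairing by run gave 0.625 to 0.858 for PT-G, 0.536 to 0.708 for p31-43 and −0.018 to 0.618 for PT, each with MED-CTL. The number of arrays limits the precision. The fit was tested on simulated data. Alternatives were background subtraction, normexp (offset 50), the deposited log2 table, median scaling, leaving out dim probes, blocks for replicate number, run and slide, the 2 groups alone, and leaving out each array. No probe positions are printed, as the array files state no build, and the probe re-annotation described in the study's methods was not used here. A further marker of another cell type is not reported here.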

Additional observations from a re-analysis of the deposited data

Results flagged for a closer look

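In 4 of 68 sets of 4 arrays (17 member probes in 4 conditions), 1 array stood apart from the other 3 by more than Dixon's 95% limit, and chance alone marks about 1 set in 20. The 3′ HSPA1A probe read 17.12 in PT replicate 1 against 16.54 to 16.59 in the other PT arrays. Without that array the PT difference of HSPA1A was 0.42 and its nominal p was no longer under 0.01. The 3′ BAG3 probe read 12.58 in MED-CTL replicate 4 against 11.57 to 11.62. Without it the PT-G and PT differences of BAG3 were 0.96 and 0.88, both then at a nominal p under 0.01. Both other values were of HSPB1 in PT-G replicate 4, with 14.33 against 13.30 to 13.44 for 1 probe and 13.57 against 12.49 to 12.63 for another. That array was also the lowest in upstream against 3′ probes of HSPA1A, BAG3 and HSPA8, and whether these facts are related was not tested.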

How the results depend on the processing

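Among 1156 values of members' log2 changes under other settings, 1150 moved by less than the spread between replicates, 6 moved further and none that was called changed sign. Blocks for run or replicate number, the 2 groups alone and leaving out dim probes cannot move these differences. Their values were therefore unmoved by design. HSPA6 and HSPA2 under both digests, and DNAJB1 under PT, had a nominal p under 0.01 in all 17 alternatives, while the 3′ HSPA1A probe had it in 12 of 17 for PT-G and 11 of 17 for PT. The HSPA1A call for PT was lost with the background-subtracted signal, normexp, the deposited log2 table, and when PT replicate 1 or MED-CTL replicate 1 or 4 was left out, with values between 0.42 and 0.53. Member probes called under PT-G numbered 3, and 1 after adjustment, 5 with median scaling, 5 with the replicate block, 6 with the run block and 8 with the slide block, and 2 to 4 when 1 array was left out. Under PT they numbered 4, and 1 after adjustment, 7 with the replicate block, 8 with the run block and 9 with the slide block, and 3 to 4 when 1 array was left out. Under p31-43 the count of 0 became 3 with the slide as a block (all HSPB1) and 1 without MED-CTL replicate 4 (HSPH1, at −0.48), so that leaving out 1 array gave 0 to 1. The share of all probes called for PT-G was 3.44% without a block, 7.59% with the replicate block and 9.16% with the run block. For PT it was 3.64% without a block and 10.3% with the run block. Shares under the other settings were not counted, so nothing is read from the rise in member counts.

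Other chaperone genes called under PT-G numbered 3, and 0 after adjustment, with the background-subtracted signal or with the 2 groups alone, 5, 7 and 5 with the replicate, run and slide block, and 1 to 5 when 1 array was left out (1 without MED-CTL replicate 1 or 2, 5 without MED-CTL replicate 3). Under PT they numbered 1, and 0 after adjustment or with the background-subtracted signal, 5, 5 and 7 with the replicate, run and slide block, 2 with the 2 groups alone, and 1 to 3 when 1 array was left out (2 when MED-CTL replicate 3 and 3 when replicate 4 was absent). Under p31-43 the 0 became 2 with each of the 3 blocks, and 0 to 2 when 1 array was left out (2 when MED-CTL replicate 3 and 1 when replicate 4 was absent). The cause of these moves was not tested. Among all probes, 7.59% passed for PT-G with the replicate block and 9.16% with the run block. For PT 10.3% passed with the run block, and for p31-43 1.05% with the replicate block and 1.38% with the run block. Shares under the other settings were not counted, and nothing is read from these counts. Near 0 and never called, the sign turned under p31-43 for GRPEL1 (0.12 with median scaling, 0.023 with the slide block, and from −0.055 to 0.13 when 1 array was left out), HSPA4L (from −0.20 to 0.032 when 1 array was left out) and HSF1 (−0.025 with the background-subtracted signal). With 4 arrays a condition, SEs of member probes ran from 0.11 to 0.54 on the log2 scale without a block.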
